A study of Saccharomyces cerevisiae with 6 samples.

Results

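This account covers the genes of leucine synthesis in Saccharomyces cerevisiae, the yeast's leucine regulator Leu3, and the mitochondrial carrier OAC1. They were taken by name as 8 genes: LEU4, LEU9, LEU1, LEU2, BAT1, BAT2, OAC1 and LEU3. In the processed table they stood on 10 of 5479 gene models, because LEU2 was split into 3 models. LEU9 was found by its systematic name, YOR108W, since its name cell was blank.

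RNA was sequenced from 3 IMY104 libraries, the mutant, and 3 CEN.PK113-7D libraries, the reference, each from an independent chemostat culture. IMY104 carries the deletions acs1Δ and acs2Δ, which remove both acetyl-CoA synthetases, and the plasmid pUDC140 (CEN6 ARS4) with pdhA, pdhB, aceF, lpd, lplA and lplA2 of Enterococcus faecalis, genes for a pyruvate dehydrogenase and for its lipoylation. CEN.PK113-7D has intact ACS1 and ACS2 and no plasmid, and is a laboratory strain known to need no amino acid supplements. Both strains grew with air at 30 °C and pH 5.0 under glucose limitation (7.5 g/L) at a dilution rate of 0.10 per h, with 500 ng/mL lipoic acid in the medium. The labels give no marker alleles for IMY104, and the table names its libraries with another strain of the same family, cenpk102-12a, which is known as a strain that needs leucine, histidine and uracil. Levels are FPKM, fragments scaled to the length of a model and to the total of fragments. For each strain the authors gave 1 value for its 3 libraries together, so no value per culture, SD or depth can be given, and the depth is unknown. Levels are relative to the total RNA of a culture, so fewer cells expressing a gene and less of its RNA per cell cannot be told apart.

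Leucine is made from 2-ketoisovalerate, an intermediate of valine synthesis. Leu4 and Leu9 join it to acetyl-CoA in the mitochondrion, which makes alpha-isopropylmalate. Leu1 and then Leu2 convert this product in the cytosol, and a transaminase, Bat1 in the mitochondrion or Bat2 in the cytosol, makes leucine. Alpha-isopropylmalate also switches Leu3, a zinc cluster factor that sits on the promoters of several of these genes, to an activator. The pathway therefore uses acetyl-CoA and is controlled by its own first product.

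The genes did not move together. In IMY104, LEU1, BAT1 and OAC1 were 1.57, 1.64 and 1.41 times as high as in CEN.PK113-7D, while all 3 LEU2 models were lower, at 36.9% to 41.6% of the CEN.PK113-7D level. LEU9 and BAT2 were higher by smaller factors, and neither LEU4 nor LEU3 passed the authors' test. In all, 8 of the 10 models were called. Counted by gene, with the longest model of LEU2, 5 rose, 1 fell and 2 were not called. Of all tested models by the authors' deposited table, 22.6% were called at a q-value under 0.05, with 11.6% higher and 11.0% lower. LEU4 and LEU9 are paralogs, as are BAT1 and BAT2, and how reads that match both copies were counted is not given in the sources used here. Over these 8 genes the median log2 fold change was 0.28, against 0.0079 over all tested chromosomal models, whose quartiles were -0.11 and 0.14.

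**Figure D1:**
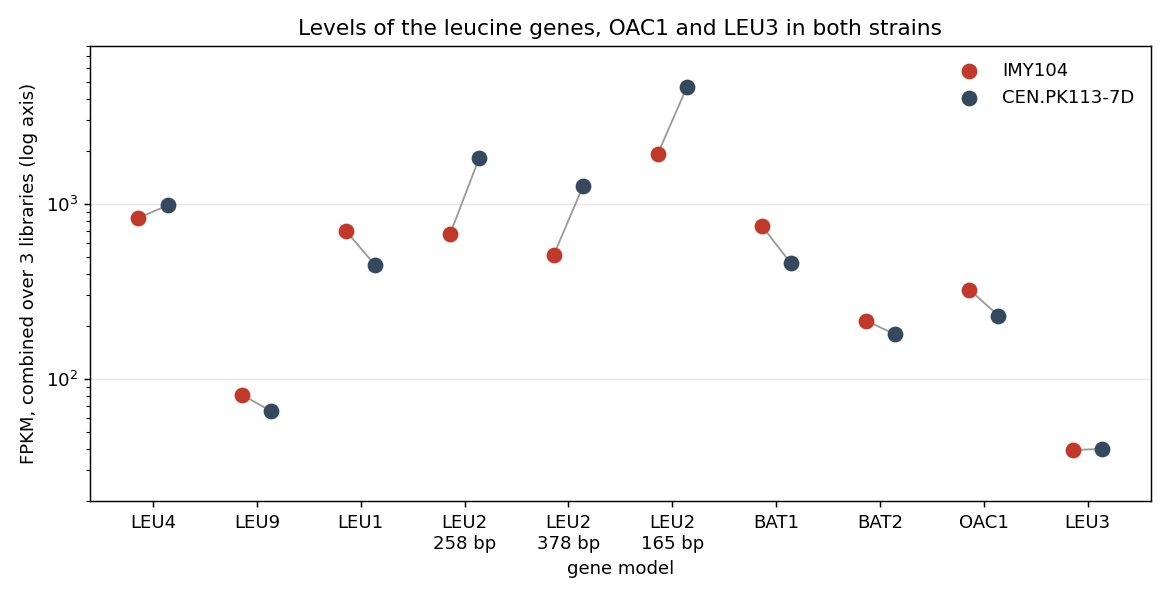
FPKM on a log axis for the 10 gene models, with the IMY104 value on the left of each pair and the CEN.PK113-7D value on the right. Each point is the authors' value combined over 3 libraries, so there are no error bars; a line joins the strains. The 3 LEU2 models, labelled by their length, slope the opposite way from LEU1, BAT1 and OAC1.

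The first step is carried by a pair of alpha-isopropylmalate synthases. LEU4 (YNL104C, chromosome 14, 418882 to 420741, minus strand) had 833 FPKM in IMY104 and 980 FPKM in CEN.PK113-7D. It is the main synthase and is inhibited by leucine. Its log2 fold change of -0.23 was not called by the authors' deposited table (p = 0.0226, q = 0.0861). LEU9 (YOR108W, chromosome 15, 523254 to 525068, plus strand), the second synthase, had 80.9 FPKM in IMY104 and 65.2 FPKM in CEN.PK113-7D. It rose with a log2 fold change of 0.31 by the authors' deposited table (q = 0.00533). The ratio of LEU4 to LEU9 in FPKM was 10.3 in IMY104 and 15.0 in CEN.PK113-7D. The level of LEU4 thus stayed well above that of LEU9 in both strains; the change of the ratio was not tested.

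LEU1 (YGL009C, chromosome 7, 476124 to 478463, minus strand) encodes isopropylmalate isomerase, an iron-sulfur enzyme of the cytosol. Its level was 699 FPKM in IMY104 and 445 FPKM in CEN.PK113-7D. It rose with a log2 fold change of 0.65 by the authors' deposited table (q = 0.00047). That made it number 112 from the top among 5447 tested chromosomal models ranked by fold change. Of all tested models, 2.51% were called higher by at least 1.5-fold, as LEU1 and BAT1 were.

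LEU2 (YCL018W, chromosome 3, plus strand) encodes beta-isopropylmalate dehydrogenase, the next enzyme, and is widely used as a selection marker. The first model, from 90991 to 91248, had 673 FPKM in IMY104 and 1825 FPKM in CEN.PK113-7D. The second, from 91508 to 91885, had 513 FPKM in IMY104 and 1264 FPKM in CEN.PK113-7D. The last, from 91923 to 92087, had 1935 FPKM in IMY104 and 4652 FPKM in CEN.PK113-7D. Every model was lower in IMY104, and the factors were close to one another. From the first to the last model the log2 fold changes were -1.44, -1.30 and -1.27, each with a q-value of 0.00047, by the authors' deposited table. Those folds lay 30th, 36th and 39th from the bottom of the 5447 chromosomal models. Of all tested models, 1.06% were called lower by at least 2-fold.

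The models of LEU2 are pieces of one gene, so they are 3 readings of the same transcript and not replicates. They measure 258, 378 and 165 bp, with gaps of 259 and 37 bp between them. Together they span 1097 bp, against 1095 bp for LEU2 in the R64 annotation, a difference of 2 bp. Within a strain the level was highest on the shortest model and lowest on the longest. The ratio of highest to lowest was 3.77 in IMY104 and 3.68 in CEN.PK113-7D. The library inserts were about 350 bp per the labels, longer than the 258 bp model and longer than the 165 bp model. The part of model length in these levels was not tested. The log2 fold changes of the models lay within 0.17 of one another. Weighted by model length, LEU2 had 858 FPKM in IMY104 and 2143 FPKM in CEN.PK113-7D, a log2 fold change of -1.32.

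The last step belongs to the branched chain transaminases. BAT1 (YHR208W, chromosome 8, 510783 to 511964, plus strand), the mitochondrial enzyme, had 751 FPKM in IMY104 and 459 FPKM in CEN.PK113-7D. It rose with a log2 fold change of 0.71 by the authors' deposited table (q = 0.00047), the largest rise of the 8 genes. BAT2 (YJR148W, chromosome 10, 688295 to 689425, plus strand), the cytosolic enzyme, had 216 FPKM in IMY104 and 180.5 FPKM in CEN.PK113-7D. Its rise was smaller, with a log2 fold change of 0.26 by the authors' deposited table (q = 0.0278). The ratio of BAT1 to BAT2 in FPKM was 3.49 in IMY104 and 2.54 in CEN.PK113-7D, a difference that was not tested.

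OAC1 (YKL120W, chromosome 11, 217318 to 218292, plus strand) encodes a carrier of the inner mitochondrial membrane for oxaloacetate and sulfate that can also export alpha-isopropylmalate. Its level was 323 FPKM in IMY104 and 230 FPKM in CEN.PK113-7D. It rose with a log2 fold change of 0.49 by the authors' deposited table (q = 0.00047).

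LEU3 (YLR451W, chromosome 12, 1021885 to 1023771, plus strand), the regulator, had 39.2 FPKM in IMY104 and 39.8 FPKM in CEN.PK113-7D. Its log2 fold change was -0.02 and was not called by the authors' deposited table (p = 0.82, q = 0.914). The model measures 1887 bp, against 2661 bp for the gene in R64, so part of the gene was not counted. The other 6 genes beside LEU2 had models of the same length as in R64. The activity of Leu3 depends on its ligand, and these data measure RNA only.

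By level, LEU2 was first of the 8 genes in CEN.PK113-7D and number 4 in IMY104, counted on its longest model. In IMY104 the order from the top was LEU4, BAT1, LEU1, LEU2, OAC1, BAT2, LEU9 and LEU3. The other 7 genes kept their order between the strains. Which neighbours in this order differ beyond the spread between cultures cannot be said without values per library. On the shortest LEU2 model, or weighted by model length, the gene stood first in both strains.

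LEU2 fell, while 4 of the 5 other enzymes of its branch rose and LEU4 was not called. Among all tested models, 11.6% rose and 11.0% fell. The log2 fold change of the longest LEU2 model, -1.30, minus the median of 0.31 over LEU4, LEU9, LEU1, BAT1 and BAT2, was -1.61. The ratio of LEU2 to LEU1, the enzyme just before it, was 3.87-fold lower in IMY104 on that model. Where LEU2 stood beside the other genes in level depends on the model. On the longest model LEU2 had 0.735 times the FPKM of LEU1 in IMY104 and 2.84 times in CEN.PK113-7D. Weighted by model length it had 1.23 times the FPKM of LEU1 in IMY104 and 4.81 times in CEN.PK113-7D, and on the shortest model 2.77 times in IMY104 and 10.4 times in CEN.PK113-7D. In IMY104 the ratio to BAT1 was 0.683 on the longest model and 1.14 weighted by length, and the ratio to LEU4 was 0.616 and 1.03 in the same order. In CEN.PK113-7D the ratio to BAT1 was 2.76 on the longest model and 4.67 weighted by length, and the ratio to LEU4 was 1.29 and 2.19. In CEN.PK113-7D, LEU2 was thus above LEU1, BAT1 and LEU4 on every model, while in IMY104 its side depends on the model. LEU4 was the nearest to LEU2 in fold change, with a difference of -1.07 on the log2 scale. These differences were not tested, since that needs values per library, and LEU2 was singled out with its values known.

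**Figure D2:**
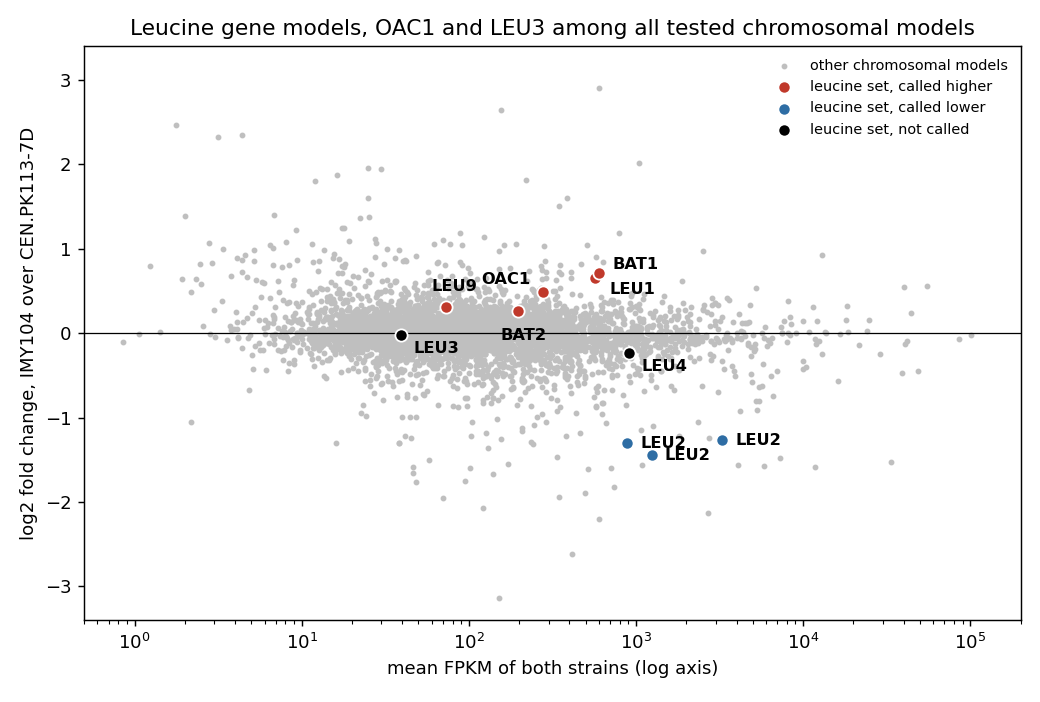
Log2 ratio of IMY104 to CEN.PK113-7D against the mean FPKM of both strains (log axis) for tested chromosomal models; coloured and black points are the leucine genes, OAC1 and LEU3. The deleted ACS1 and ACS2 lie outside the vertical axis. The 3 LEU2 points lie between -1.27 and -1.44, below the main cloud, and BAT1 and LEU1 lie at 0.71 and 0.65 near its upper edge.

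The genes most like LEU2 in fold change were sought among models with a mean of at least 50 FPKM. The 5 nearest were YJR096W, FMP16, YEF1, SSA3 and SSA4, whose log2 fold changes ran from -1.36 to -1.26 by the authors' deposited table. SSA3 and SSA4 encode heat shock proteins of the HSP70 family, and YEF1 encodes an NAD kinase. None of the 5 is an enzyme of leucine synthesis. Likeness here rests on 1 fold change over a pair of strains.

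No gene model within 20 kb of LEU2 fell as far as LEU2 did. Its nearest neighbour in the table, NFS1, the cysteine desulfurase of iron-sulfur cluster assembly, lies 0.359 kb beyond the last LEU2 model, on the minus strand, and had 142 FPKM in IMY104 and 151.5 FPKM in CEN.PK113-7D. The log2 fold change of NFS1 was -0.09 and was not called by the authors' deposited table (q = 0.56). Of 19 other models within 20 kb, 3 rose and 3 fell, with a median log2 fold change of -0.05. Among all tested models, 11.6% rose and 11.0% fell. The lowest of the 19 was YCL012C with -0.49 by the authors' deposited table. The closest model on the other side, YCL021W-A, 7.33 kb away, fell with -0.38 by the authors' deposited table (q = 0.0415). Among 6 neighbours listed by name, KCC4 rose with 0.27 by the authors' deposited table (q = 0.0258). AGP1, NFS1, DCC1, BUD3 and GBP2, the rest of the 6, had values from -0.10 to 0.02 and were not called. Outside the 6, FRM2 and ILV6 rose with 1.04 and 0.26 by the authors' deposited table (q = 0.00047 and q = 0.0258). FRM2 had only 8.66 FPKM in IMY104 and 4.21 FPKM in CEN.PK113-7D. RER1 fell with -0.48 by the authors' deposited table (q = 0.00047).

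**Figure D3:**
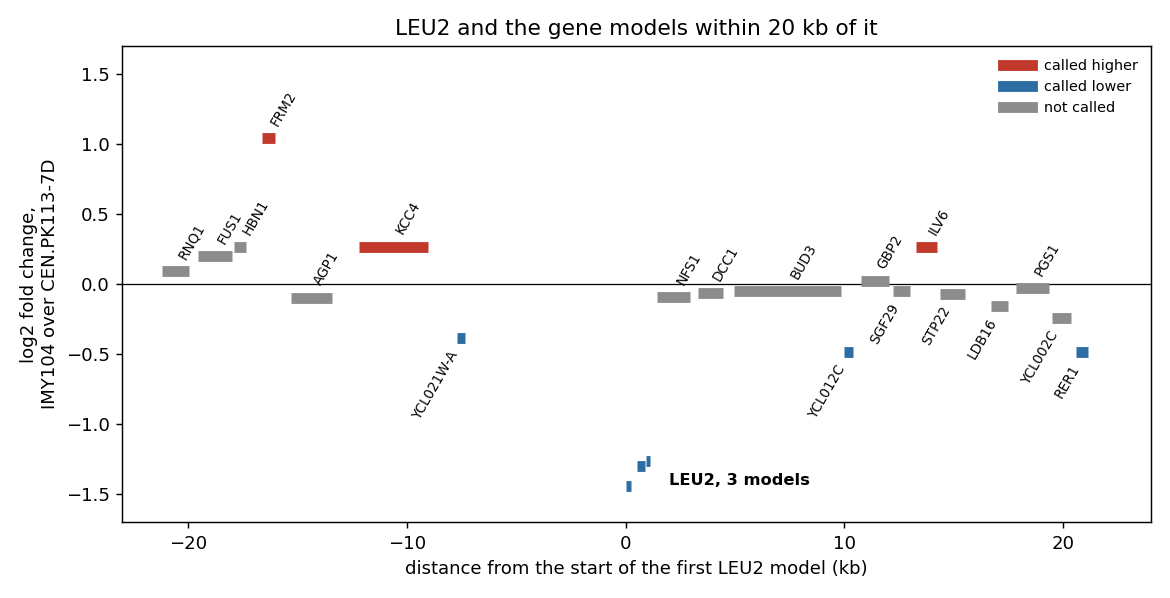
Gene models within 20 kb of LEU2 on chromosome 3, drawn to scale along the horizontal axis as distance in kb from the start of the first LEU2 model, at the height of their log2 ratio of IMY104 to CEN.PK113-7D. The 3 LEU2 models lie below -1.2, and the other 19 models lie between -0.49 and 1.04.

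Among other genes that laboratory strains use as markers, URA3 and TRP1 were called higher. URA3, which makes uracil, had 1060 FPKM in IMY104 and 142 FPKM in CEN.PK113-7D, and rose with 2.90 by the authors' deposited table (q = 0.00047). HIS3, of histidine synthesis, had 352 FPKM in IMY104 and 304 FPKM in CEN.PK113-7D, a log2 fold change of 0.21 that was not called by the authors' deposited table (q = 0.0944). TRP1, of tryptophan synthesis, rose with 0.31 by the authors' deposited table (q = 0.00558). LYS2, ADE2 and MET17 had log2 fold changes of 0.16, -0.04 and -0.03 and were not called by the authors' deposited table. By gene, 2 of the 7 markers rose and 1, LEU2, fell, with a median log2 fold change of 0.16. Among all tested models, 11.6% rose and 11.0% fell. Whether the strains carry different alleles of LEU2 or URA3 is not given in the labels. Strain background, the plasmid and the change of the acetyl-CoA route cannot be told apart for these genes or for the other genes here.

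The 8 targets of Leu3 taken from textbook knowledge were LEU1, LEU2, LEU4, BAT1, OAC1, ILV2, ILV5 and GDH1. Of these, 4 rose, 1 fell and 3 were not called, with a median log2 fold change of 0.24. Among all tested models, 11.6% rose and 11.0% fell. GDH1, the NADP-dependent glutamate dehydrogenase of ammonia assimilation, had 1777 FPKM in IMY104 and 1433 FPKM in CEN.PK113-7D. It rose with 0.31 by the authors' deposited table (q = 0.0155). ILV2, the catalytic subunit of acetolactate synthase, had 452 FPKM in IMY104 and 404 FPKM in CEN.PK113-7D, and ILV5, the reductoisomerase that follows it, had 2214 FPKM in IMY104 and 2283 FPKM in CEN.PK113-7D. Their log2 fold changes of 0.16 and -0.04 were not called by the authors' deposited table. The targets that were called thus lay in both directions, and LEU2 was the only one called lower.

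Of the 5 isoleucine and valine genes, 4 of which lead to 2-ketoisovalerate, 2 rose and none fell, with a median log2 fold change of 0.16. Over all tested models 11.6% rose. ILV6, the regulatory subunit of acetolactate synthase, and ILV1, the threonine deaminase that starts isoleucine synthesis, rose with 0.26 and 0.25 by the authors' deposited table (q = 0.0258 and q = 0.0409). ILV3, the dihydroxyacid dehydratase that makes 2-ketoisovalerate, had 0.07 and was not called by the authors' deposited table. LEU2 was the only LEU or ILV gene with a difference of at least 2-fold.

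Of 8 permease and sensor genes for the uptake of branched chain amino acids, 3 rose, none fell and 5 were not called, with a median log2 fold change of 0.10. Over all tested models 11.6% rose. GNP1, a permease of broad range, had 95.0 FPKM in IMY104 and 44.3 FPKM in CEN.PK113-7D, a log2 fold change of 1.10 by the authors' deposited table (q = 0.00047). TAT1 and BAP2, permeases that take up leucine, isoleucine and valine, rose with 0.47 and 0.25 by the authors' deposited table (q = 0.00126 and q = 0.0456). The BAP2 model covers 921 bp, against 1830 bp for the gene in R64. AGP1, BAP3 and the genes of the amino acid sensor, SSY1, PTR3 and SSY5, had log2 fold changes from -0.10 to 0.12 and were not called by the authors' deposited table.

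Branched chain amino acids are broken down to fusel alcohols. Of 7 genes chosen from this route, 5 were lower and 1, BAT2, was higher, with a median log2 fold change of -0.29. The list does not hold every decarboxylase and alcohol dehydrogenase of the yeast. Over all tested models 11.0% fell and 11.6% rose. The decarboxylases PDC6 and PDC1 fell with -0.99 and -0.83 by the authors' deposited table (each q = 0.00047). ARO10, also a decarboxylase, fell with -0.24 by the authors' deposited table (q = 0.0494), just under the threshold of 0.05. The alcohol dehydrogenases SFA1 and ADH6 fell with -0.33 and -0.29 by the authors' deposited table. THI3, a protein of the decarboxylase family that acts in thiamine regulation, had 0.15 and was not called by the authors' deposited table. PDC1 and PDC6 also act on pyruvate, so this list is not particular to amino acids.

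Of 22 other amino acid synthesis genes under the general activator Gcn4, 4 rose, 3 fell and 15 were not called, with a median log2 fold change of 0.08. Over all tested models 11.6% rose and 11.0% fell. The 22 genes are a chosen part of the genes under Gcn4, and their counts were not tested against these shares. None of the HIS genes among them was called, while in the histidine class given under other observations 2 of 8 rose. ARG4, LYS1, ARO3 and TRP3 rose with 0.43, 0.28, 0.26 and 0.24 by the authors' deposited table (q = 0.00047, 0.0198, 0.0423 and 0.0432). ARG1, LYS9 and ARG8 fell with -0.44, -0.37 and -0.24 by the authors' deposited table (q = 0.00047, 0.00126 and 0.0495). GCN4 itself had 4717 FPKM in IMY104 and 5450 FPKM in CEN.PK113-7D, a log2 fold change of -0.21 that was not called by the authors' deposited table (q = 0.149). The range of the 22 genes, from -0.44 to 0.43, held neither LEU2 nor BAT1, LEU1 and OAC1.

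**Figure D4:**
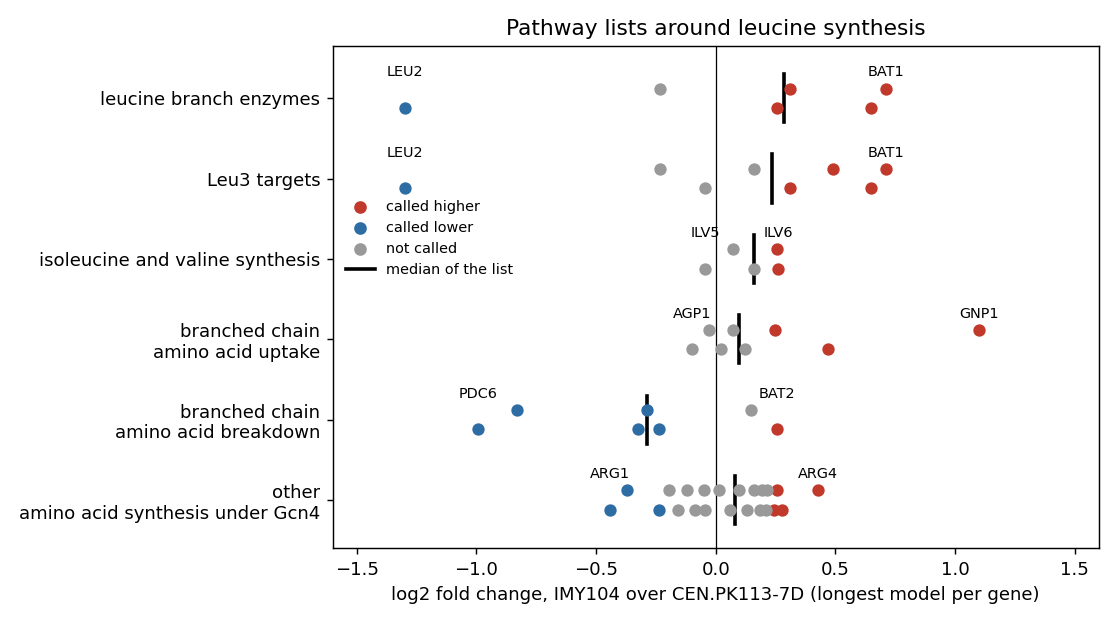
Log2 ratio of IMY104 to CEN.PK113-7D for each gene of 6 lists, with the longest model per gene; colours give the authors' call and the black bar the median of a list. The ends of each list are named. LEU2 at -1.30 lies apart from the other leucine branch enzymes, which run from -0.23 to 0.71.

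The libraries matched their labels at the engineered genes. ACS1 and ACS2 had 0.882 and 0.179 FPKM in IMY104, against 1094 and 494 FPKM in CEN.PK113-7D. The 7 plasmid models had 344 to 10685 FPKM in IMY104 and 0.218 to 2.74 FPKM in CEN.PK113-7D. The median level of tested chromosomal models was 85.1 FPKM in IMY104 and 83.7 FPKM in CEN.PK113-7D.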

How the data were processed

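The deposited FPKM values, log2 fold changes, test statistics (a score, positive where IMY104 is higher), p-values and q-values come from 1 table that compares the strains, with the 3 libraries of each combined by the authors, per the file headers. The submitters' processing notes name Cuffdiff, Cufflinks, SAMtools 0.1.7-r510, BWA 0.5.9-r16 and CASAVA 1.8.2, without roles. How libraries were scaled and which genome build was used is not given in the sources used here; models are JIGSAW predictions, per the file headers. Coordinates are those of the files, from 1. No library values or depths were had, so nothing was fitted: limma, planned for values per library, was not run, and calls are the authors' (q under 0.05). The smallest p, 5e-05, is shared by 581 models, all with q = 0.00047. The q-values equalled Benjamini-Hochberg values within 1e-06. Of 5479 models, 5463 were tested; 5447 blank lines were dropped. The protocols name no strand-marking step, so antisense reads cannot be told apart.

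Symbols and gene lengths came from the R64 annotation. Its coordinates differ from the files', so promoter sequences and motifs were not used here. Lists hold the longest model per gene on its own chromosome. Members and lists were chosen with earlier results of these data known. Named were all models of the 8 genes, every gene of lists of 8 or fewer, every called gene of longer lists, and the 5 models nearest LEU2. Tables and plots were made with Python 3.11.15, pandas 2.3.3 and matplotlib 3.10.9. Alternatives covered the threshold, minimum fold, model length, low values, pseudocount, scaling and choice of LEU2 model.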

Additional observations from a re-analysis of the deposited data

How the results depend on the processing

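Over the models of the 8 genes, 8 of 10 were called, with LEU2 counted on 3 models, against 22.6% of all tested models. With a change of at least 1.5-fold required as well, 5 were: LEU1, BAT1 and the LEU2 models, which are pieces of one gene. Of all tested models, 2.51% were called higher by at least 1.5-fold and 1.06% lower by at least 2-fold. Shares of all models under the other alternatives were not computed. At q under 0.01 the count was 7, without BAT2. With models of at least 300 bp, or with the longest model of each gene, 6 of 8 were called, and a minimum mean of 10 FPKM left 8. The 8 Leu3 targets stand on 10 models, since LEU2 has 3, and 7 of these models were called. By gene, 5 of the 8 were called. Under these alternatives the count ran from 5 to 7, out of 8 or 10 models. The difference between LEU2 and the median of the other branch enzymes, -1.61 on the log2 scale, ran from -1.75 with the 258 bp model to -1.52 with quantile normalization, over pseudocounts of 1 and 5 FPKM, median centring, the other LEU2 models, their weighted mean and the other Leu3 targets as comparison. No fold change of the 10 models changed sign under the pseudocounts, centring or quantile normalization; the largest shift was 0.10, for LEU1. Leaving out each library could not be run on combined values. No paired analysis was possible because the table holds 1 combined value per strain and the labels give no replicate numbers. Culture-to-culture spread is seen here only by way of the authors' test, and the depth is unknown. LEU2 levels rest on models of at most 378 bp. The level of LEU2 relative to LEU1, BAT1 and LEU4 in IMY104 changed side between models, as given above; those ratios, and the count of Gcn4 genes without GCN4, were chosen after seeing the data.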

Other observations

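The table carries functional classes of its own, which give another view of amino acid synthesis; this grouping was looked at after the values above were seen. Its class of leucine synthesis holds LEU1, LEU2, LEU3 and LEU4, of which 1 rose and 1 fell, with a median log2 fold change of -0.13. Its class of branched chain metabolism holds the ILV and BAT genes, of which 4 of 7 rose and none fell, with a median of 0.25. In aromatic amino acid metabolism 4 of 7 genes rose and 1 fell, with a median of 0.26. In histidine synthesis 2 of 8 rose and none fell, with a median of 0.20. Methionine synthesis had 4 of 11 genes higher and none lower, with a median of 0.14. Tryptophan synthesis had 2 of 5 genes higher and none lower, with a median of 0.21. In lysine synthesis 1 of 9 rose and 2 fell, with a median of -0.09. Of all tested models 22.6% were called, with 11.6% higher and 11.0% lower, and no class was tested against these shares.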
